A study of Schistocerca gregaria with 20 samples.

Results

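Disembodied (dib, Cyp302A1, transcript SgreTa0014975) and spook (spo, Cyp307A1, transcript SgreTa0006308) are the 2 genes described here, of 12988 transcripts measured in pleuropodia and hind legs of embryos of the desert locust Schistocerca gregaria. They were taken by their transcript identifiers, as the members of the ecdysone synthesis pathway that the study had called different between the tissues on days 10-12. The study lists the other pathway genes at those ages as not significant, not found or too low to test. The other genes of the pathway were not analysed here. Pleuropodia are a pair of glandular appendages on the first abdominal segment of the embryo, and the hind legs (T3 legs) are the appendages of the third thoracic segment. Messenger RNA was sequenced from pleuropodia and from legs at 10 ages, namely days 4, 5, 6, 7, 8, 8-9, 10, 11, 12 and 13, with 1 library per tissue and age and 20 libraries in all. Each library was a pool of appendages from many untreated embryos of the gregarious phase, so no library has a replicate of its own age. For tests the ages were grouped into days 4-6, days 7-9 and days 10-12 with 3 libraries per tissue in each period, and day 13 stands alone. The libraries of 1 period then differ in age, and the spread between them holds both development and error. Because nothing tells separate cultures apart within an age, the p-values measure only the spread between these libraries.

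Ecdysone, the steroid hormone that drives moulting in insects, is made from dietary sterols by a chain of enzymes, most of them cytochrome P450 proteins known from Drosophila as the Halloween genes. Spo acts early in the chain, in the poorly understood group of reactions called the black box, while dib acts late, as the mitochondrial enzyme that puts a hydroxyl group on the side chain of the sterol. In larvae the enzymes work together in the prothoracic gland, and the locust embryo itself moults inside the egg, for the second time shortly before day 12.

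Library depth, recovered from the steps of the RPKM values (read counts scaled to the length of the transcript and to the mapped reads of the library), ran from 15.2 to 36.0 M reads (M, mega) in pleuropodia and from 27.9 to 36.9 M reads in legs. The shallowest library of each tissue was that of day 8-9, the only pair prepared at a second sequencing centre (EASIH, Cambridge, against BGI, Hong Kong), so that centre was balanced between the tissues. Within a tissue, the age of day 8-9 cannot be told apart from the centre, nor from its paired reads, against single reads elsewhere. The tissue labels were checked with marker genes. The leg gene dac (SgreTd0002755) lay between 0 and 3.31 RPKM in pleuropodia and between 9.98 and 99.4 RPKM in legs, and the abdominal Hox gene abd-A (SgreTf0002957) lay between 0.273 and 17.2 RPKM in pleuropodia and between 0 and 0.272 RPKM in legs. The Hox gene Ubx (SgreTf0014307), which marks the first abdominal segment but is also made in hind legs, ran the other way after the youngest ages, at 104 to 188 RPKM in pleuropodia and 59.0 to 112 RPKM in legs on days 4-6, and at 2.12 to 3.62 RPKM in pleuropodia and 24.0 to 99.4 RPKM in legs on days 10-12 (log2 fold change -3.55, limma adjusted p = 0.0016). The summed level of 10 transcripts that the study picked on these libraries as abundant in pleuropodia was 61138 to 100313 RPKM in pleuropodia of days 10-12 and 149 to 238 RPKM in legs of those days.

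The dib transcript was the steadier of the pair, and its level was higher in pleuropodia than in legs at each of the 10 ages. In pleuropodia it stood at 7.16, 7.78 and 21.2 RPKM on days 4, 5 and 6, at 53.1, 53.1 and 30.9 RPKM on days 7, 8 and 8-9, at 50.4, 63.2 and 53.7 RPKM on days 10, 11 and 12, and at 26.9 RPKM on day 13. In legs it stood at 5.15, 6.92 and 8.43 RPKM on days 4, 5 and 6, at 17.5, 18.2 and 15.9 RPKM on days 7, 8 and 8-9, at 11.5, 14.2 and 3.57 RPKM on days 10, 11 and 12, and at 0.615 RPKM on day 13. Without scaling between libraries, both tissues were therefore low at the youngest ages and higher from day 7. Pleuropodia then held their level until day 12, apart from day 8-9, the only age from the second centre. Legs had their lowest values on days 12 and 13. After TMM scaling, which aligns the bulk of transcripts between libraries, the pleuropodia level instead rose further. It stood at 48.5, 59.7 and 31.6 RPKM on days 7, 8 and 8-9, and at 63.8, 91.0 and 84.4 RPKM on days 10, 11 and 12. On day 13 it was 47.5 RPKM. Pooled over ages the tissues overlapped, since the pleuropodia of days 4 and 5 lay below 6 of the 10 leg libraries. These values rested on 451 to 3968 dib reads per library in pleuropodia and on 34 to 1218 in legs.

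**Figure D1:**
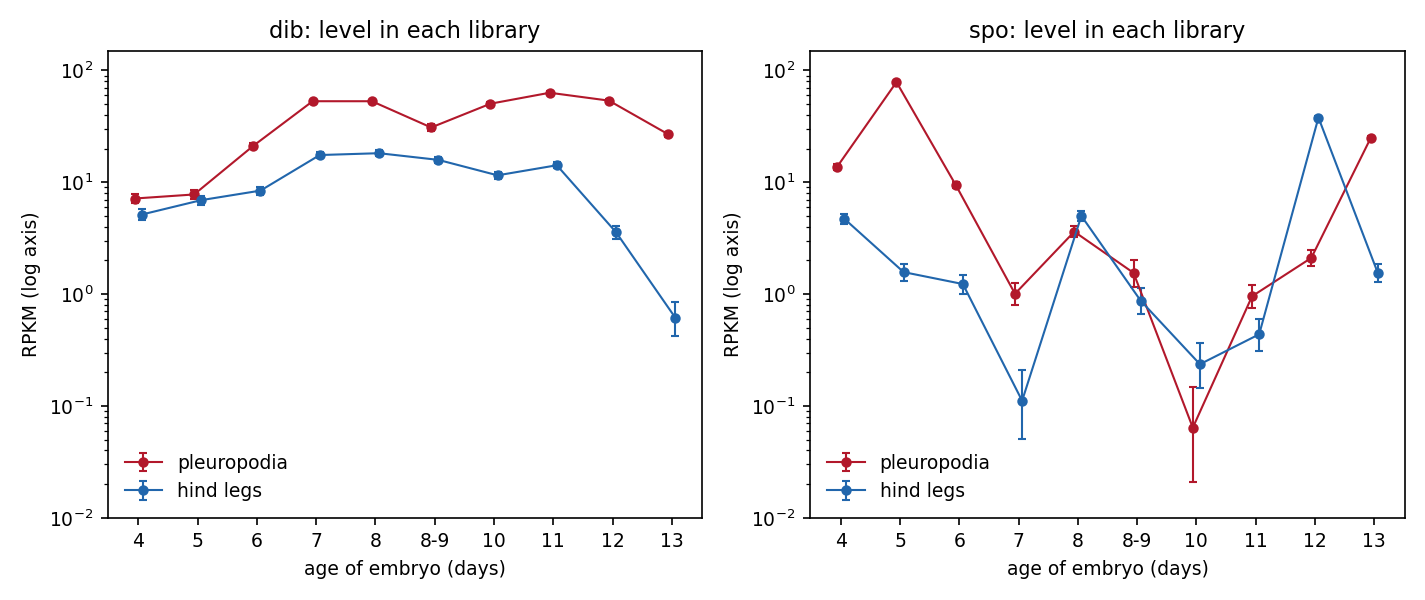
Level of dib (left) and spo (right) in each library, in RPKM on a log axis, against the age of the embryo in days, for pleuropodia (red) and hind legs (blue), with bars that give the exact Poisson 95% interval of the reads. The pleuropodia line of dib lies above the leg line throughout, while the lines of spo cross, with peaks of 78.7 RPKM in pleuropodia of day 5 and 37.9 RPKM in legs of day 12.

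Ranked within pleuropodia on the unscaled RPKM, dib was highest on day 11, and days 12, 7 and 8 followed, each within the counting error of its neighbour among them. Days 10, 8-9, 13 and 6 came next, each apart from the next by more than counting error, and days 5 and 4 were lowest and could not be told apart (ratio 1.09, interval 0.954 to 1.24). In legs days 8 and 7 were highest and not separable (ratio 1.04, interval 0.957 to 1.13), and every later step in the order, down to days 12 and 13, exceeded the counting error of the reads as counted. The day 8-9 reads were sequenced as pairs that may have been counted as single reads. With those reads halved, day 7 could not be separated from day 8-9 in legs (interval 0.985 to 1.24), nor day 8-9 from day 11 (interval 0.992 to 1.26). These exact 95% intervals cover counting error only, not the variation between embryos. Relative to the other transcripts of the same library, dib exceeded 92.7% of them in pleuropodia of day 11 and 86.9% on day 13, against 61.2% and 11.5% in legs of those ages.

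The ratio of dib in pleuropodia to that in legs was near 1 at the youngest ages and largest at the oldest. It was 1.39 on day 4 (interval 1.21 to 1.60) and 1.12 on day 5, where the interval of 0.987 to 1.28 included 1. It lay between 1.95 and 3.03 from day 6 to day 8-9 and was 4.37 and 4.45 on days 10 and 11. The largest ratios were 15 on day 12 (interval 13.1 to 17.4) and 43.7 on day 13 (interval 31.1 to 63.3), and at these ages the leg level was low while the pleuropodia level was not above that of day 11. Across ages, 9 of the 10 intervals excluded 1. After TMM scaling the ratio still exceeded 1 at 10 of 10 ages and ran from 1.03 to 49.0, with 9 of 10 intervals excluding 1, and it was 6.58 and 7.98 on days 10 and 11.

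**Figure D2:**
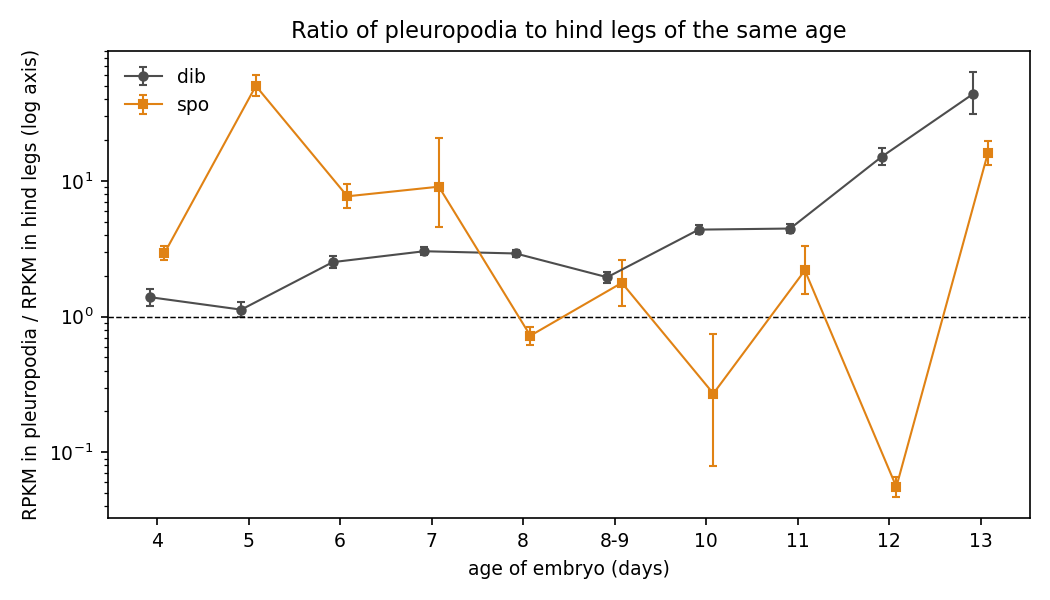
Ratio of the RPKM in pleuropodia to the RPKM in hind legs of the same age (log axis) against age in days, for dib (grey circles) and spo (orange squares), with exact 95% intervals from the reads and a dashed line at equal levels. The ratio of dib is above 1 at 10 ages and reaches 43.7 on day 13, while that of spo is 50.0 on day 5 and 0.0557 on day 12.

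At single ages a difference was counted on the unscaled RPKM, where it exceeded 2-fold with more than 10 RPKM in the higher tissue. By that measure dib was higher in pleuropodia at 7 ages, that is from day 6 onward apart from day 8-9. The same held for 5.78% of all 12988 transcripts on day 6, 8.41% on day 7, 7.56% on day 8, 8.53% on day 10, 7.96% on day 11, 7.67% on day 12 and 10.3% on day 13. There is no replicate at a single age, so these counts carry no p-value. After TMM scaling the ratio of dib on day 8-9 was 2.33, at 31.6 RPKM in pleuropodia, so that age passed on that scale. The shares of all transcripts were not computed after TMM scaling.

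On days 4-6 dib averaged 12.1 ± 7.93 RPKM in pleuropodia and 6.83 ± 1.64 RPKM in legs (SD, n = 3 each, as in the other periods). On days 7-9 it averaged 45.7 ± 12.8 RPKM in pleuropodia and 17.2 ± 1.20 RPKM in legs, and on days 10-12 it averaged 55.8 ± 6.63 RPKM in pleuropodia and 9.77 ± 5.53 RPKM in legs. The ranges of the tissues overlapped on days 4-6 and were apart in the later periods. On days 4-6 the log2 fold change was 0.63 (SE 0.47, 95% interval -0.51 to 1.77, limma adjusted p = 0.68), in a comparison in which 0.0504% of the 9911 transcripts tested were called higher and 0.0706% lower. The estimate was 0.09 without the pleuropodia of day 6, the library of that period with the highest dib level.

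On days 7-9 dib was higher in pleuropodia than in legs by a log2 fold change of 1.62 (SE 0.23, 95% interval 1.06 to 2.18, limma adjusted p = 0.0017), where 24.6% of 10989 transcripts were called higher and 22.3% lower. On days 10-12 the log2 fold change was 3.29 (SE 0.40, 95% interval 2.31 to 4.27, limma adjusted p = 0.0013), where 26% of 11462 transcripts were called higher and 19.7% lower. The study singled out dib and spo on these same libraries of days 10-12, so that test is not independent evidence of direction. The same limit holds for the fits and permutation tests over all ages and for the changes to days 10-12, which include these libraries. The study also compared these genes at other stages and reports dib and spo as upregulated at some stages. The tests of the earlier periods are therefore not independent of its results either. Without TMM scaling the value of days 10-12 was 2.64 (limma adjusted p = 0.0054). Both calls held in each fit that left out 1 library, with ranges of 1.42 to 1.87 and 2.85 to 3.57. In bulk tissue, fewer cells that make a transcript and less of it per cell cannot be told apart. Prophenoloxidase 2 (SgreTa0006966), an enzyme of melanin formation, was followed as a possible marker of haemocytes (blood cells). The study lists it among the immunity genes upregulated in pleuropodia, and which cells made it here was not tested. It stood at 462, 1041 and 2540 RPKM in pleuropodia and at 187, 136 and 112 RPKM in legs on days 10, 11 and 12. Its part in the dib difference was not tested. On days 7, 8 and 8-9 that transcript was at 0.75, 30.9 and 8.82 RPKM in pleuropodia and at 0.332, 24.7 and 9.77 RPKM in legs.

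With all 10 ages in 1 fit and age as a block, dib was higher in pleuropodia by a log2 fold change of 2.16 (SE 0.46, 95% interval 1.16 to 3.17, limma adjusted p = 0.0035), where 27.2% of 10341 transcripts were called higher and 25% lower. The exact two-sided sign-flip permutation test over the 10 age differences gave p = 0.00195, the smallest it can give with 10 pairs. The gap between the tissues widened between days 4-6 and days 10-12 by 2.66 on the log2 scale (SE 0.59, 95% interval 1.39 to 3.93, limma adjusted p = 0.0032), a change in this direction that 17.8% of 12235 transcripts showed. The intermediate steps did not pass the threshold. They were 0.99 from days 4-6 to days 7-9 (95% interval -0.28 to 2.26, limma adjusted p = 0.30) and 1.67 from days 7-9 to days 10-12 (95% interval 0.40 to 2.94, limma adjusted p = 0.10), where 10.6% and 3.29% of transcripts were called in that direction. Without the pleuropodia of day 6, both steps passed, at 1.53 (limma adjusted p = 0.039) and 1.67 (limma adjusted p = 0.030).

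**Figure D3:**
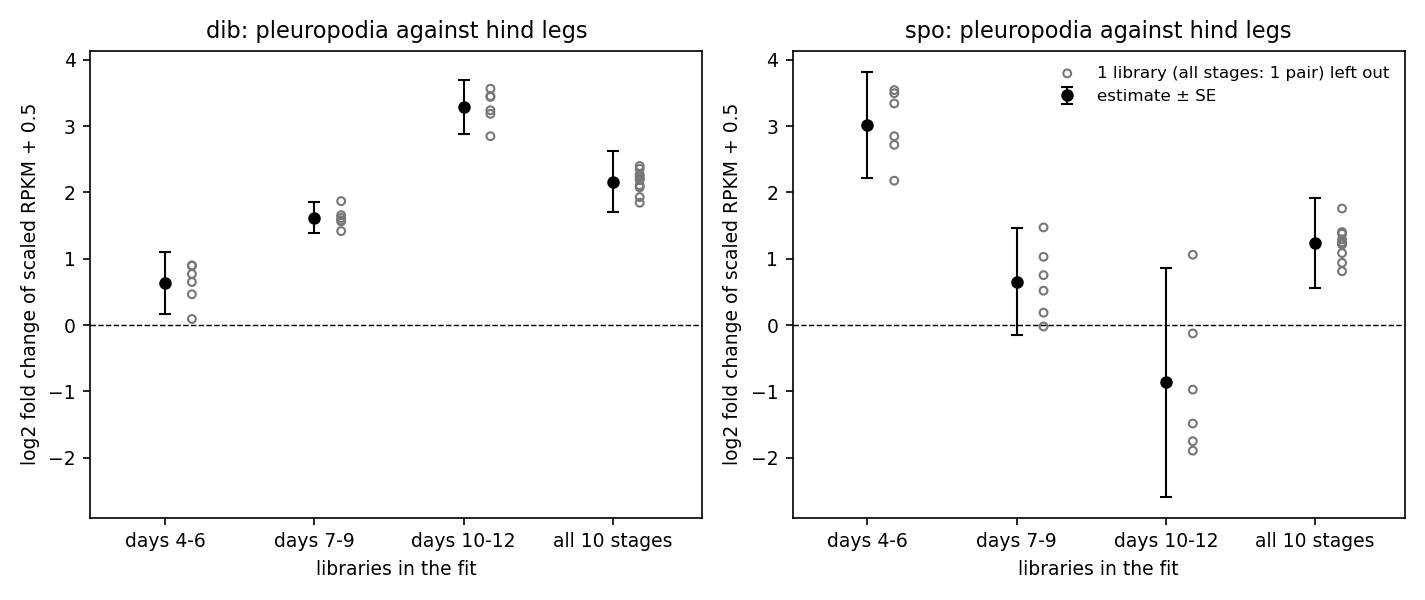
Log2 fold change of pleuropodia against hind legs for dib (left) and spo (right) in 3 periods and over all 10 ages, from limma on the log2 of scaled RPKM plus 0.5, with the standard error as bars and open circles for the fits that left out 1 library (1 pair of the same age in the fit of all ages). The dib estimates are 0.63, 1.62, 3.29 and 2.16, and every open circle of dib is above 0, whereas the open circles of spo on days 10-12 run from -1.89 to 1.06.

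In contrast to dib, spo came in short peaks that lay at different ages in pleuropodia and legs. In pleuropodia it stood at 13.8, 78.7 and 9.46 RPKM on days 4, 5 and 6, at 1.01, 3.62 and 1.55 RPKM on days 7, 8 and 8-9, at 0.0640, 0.958 and 2.11 RPKM on days 10, 11 and 12, and at 24.8 RPKM on day 13. In legs it stood at 4.72, 1.57 and 1.23 RPKM on days 4, 5 and 6, at 0.111, 5.01 and 0.874 RPKM on days 7, 8 and 8-9, at 0.236, 0.438 and 37.9 RPKM on days 10, 11 and 12, and at 1.55 RPKM on day 13. Pleuropodia were thus high on day 5 and again on day 13, legs had their peak on day 12, and both tissues had a minor maximum on day 8 and low levels on day 10. The ranges of the tissues overlapped widely. The lowest value, pleuropodia of day 10, rested on 5 reads (interval 0.0208 to 0.149 RPKM), and the highest, pleuropodia of day 5, on 6353 reads.

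The steps between successive ages were steep. In pleuropodia the level of spo on day 5 was 5.70 times that of day 4 and 8.31 times that of day 6, and the level of day 13 was 11.8 times that of day 12. In legs the level on day 12 was 86.6 times that of day 11 and 24.4 times that of day 13. The highest library was 3.17 times the second highest in pleuropodia and 7.57 times the second highest in legs. These steps and ratios are of RPKM without TMM scaling. After TMM scaling spo in pleuropodia stood at 58.2 RPKM on day 5 and at 43.9 RPKM on day 13, which are much closer levels. In legs the scaled level was 41.5 RPKM on day 12 and 4.19 RPKM on day 8. On the unscaled RPKM, peaks at these ages were not rare among transcripts, since 21.9% of 11953 transcripts were highest on day 5 in pleuropodia and 13.9% of 12443 were highest on day 12 in legs. Of the transcripts with the same peak age, 1.95% in pleuropodia and 6.49% in legs exceeded their second highest library by at least as much as spo did. The largest TMM factor of all libraries was that of pleuropodia of day 5, at 1.35. None of these shares was computed after TMM scaling.

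Ranked within pleuropodia, the spo levels of days 5, 13, 4, 6 and 8 each exceeded the next by more than counting error, while day 12 could not be separated from day 8-9 (ratio 1.36, interval 0.997 to 1.89) nor day 7 from day 11 (ratio 1.05, interval 0.761 to 1.46). In legs day 12 was well apart from day 8 (ratio 7.57, interval 6.84 to 8.40). Below it the order was days 8, 4, 5, 13, 6, 8-9, 11, 10 and 7, in which days 8 and 4, days 5 and 13, days 13 and 6, and days 10 and 7 were neighbours that counting error did not separate. With the day 8-9 reads halved, day 8-9 was also not separable from day 7 in pleuropodia (interval 0.959 to 2.39) nor from day 6 in legs (interval 0.923 to 2.21). Compared with its own median on the unscaled RPKM, spo reached 27.5 times that level in pleuropodia and 27.2 times in legs, against 1.55 and 1.82 times for dib. Of all transcripts compared, 3.04% in pleuropodia and 5.72% in legs reached at least the excess of spo.

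Set against legs of the same age, spo was higher in pleuropodia at 7 ages and lower at 3, and each of the 10 intervals of the unscaled ratio excluded 1. On days 4 to 7 the ratio of pleuropodia to legs was 2.92, 50.0 (interval 42.0 to 59.9), 7.69 and 9.05 (interval 4.54 to 20.5). It was 0.723 on day 8 (interval 0.622 to 0.839), 1.77 on day 8-9, 0.271 on day 10 (interval 0.0794 to 0.743) and 2.19 on day 11. On day 12 spo was 18-fold lower in pleuropodia (interval 15.3 to 21.2), and on day 13 it was 16.0-fold higher (interval 13.2 to 19.5), so that the direction turned within 1 day of age. After TMM scaling the ratio had the same direction at each age, but 8 of 10 intervals excluded 1, and those of day 8 (ratio 0.972, interval 0.837 to 1.13) and day 10 (ratio 0.408, interval 0.120 to 1.12) did not, so that day 12 was the 1 age at which spo was lower on both scales by more than counting error.

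By the measure of 2-fold and 10 RPKM, again without scaling, spo was higher in pleuropodia on day 4, where 0.316% of transcripts were. It was also higher on day 5, where 2.28% were, and on day 13, where 10.3% were. It was lower on day 12, as were 15.3% of transcripts. Its ratio on days 6 and 7 exceeded 2-fold as well, but the level in pleuropodia was under 10 RPKM.

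On days 4-6 spo averaged 34.0 ± 38.8 RPKM in pleuropodia and 2.51 ± 1.92 RPKM in legs (SD, n = 3 each), and the 3 pleuropodia libraries lay above the 3 leg libraries. The log2 fold change was 3.02 (SE 0.80, 95% interval 1.09 to 4.96), which did not pass the threshold across all transcripts (limma adjusted p = 0.58). It stayed between 2.18 and 3.54 when any 1 of the 6 libraries was left out, none of which brought it past the threshold. In that period 12 of 9911 transcripts were called in either direction, and 583 had an unadjusted p under 0.05.

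On days 7-9 spo averaged 2.06 ± 1.38 RPKM in pleuropodia and 2.0 ± 2.63 RPKM in legs (SD, n = 3 each), and the ranges overlapped. The log2 fold change was 0.66 (SE 0.80, 95% interval -1.25 to 2.57, limma adjusted p = 0.53). It was -0.02 without the legs of day 7, the lowest leg library, and 1.47 without the legs of day 8, the highest of the period.

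On days 10-12 the mean was 1.04 ± 1.03 RPKM in pleuropodia and 12.9 ± 21.7 RPKM in legs (SD, n = 3 each). Of the summed RPKM of the 3 leg libraries, 98.3% came from day 12, and the legs of days 10 and 11 averaged 0.337 RPKM. Only 2 of the 6 libraries reached 1 RPKM, where 3 were needed, so spo was tested in the fit with no filter on low values. There the log2 fold change was -0.86 (SE 1.73, 95% interval -5.10 to 3.38, limma adjusted p = 0.71), where 18.3% of 12965 transcripts were called lower in pleuropodia and 23% higher. Without the legs of day 12 it turned to 1.06 (limma adjusted p = 0.31). The lower mean of spo in pleuropodia of this period thus rested on 1 leg library.

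Levels of pleuropodia transcripts in legs are given beside this peak of spo in legs of day 12. Whether pleuropodia or other tissue carried over into that library played a part in the peak was not tested. The summed level of the 10 abundant pleuropodia transcripts was 149 to 238 RPKM in legs of days 10-12 and 164 RPKM in legs of day 13, and pleuropodia of day 12 themselves held spo at 2.11 RPKM. Single transcripts that were high in pleuropodia differed in legs. A neutral endopeptidase (SgreTa0002467) stood at 11.7, 167 and 32.3 RPKM in legs of days 11, 12 and 13, and chitinase 5 (SgreTa0017664) at 55.9, 15.4 and 26.7 RPKM. The dib level of the legs of day 12, 3.57 RPKM, was below that of day 11.

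Over all 10 ages, the log2 fold change of spo was 1.24 (SE 0.67, 95% interval -0.25 to 2.72, limma adjusted p = 0.14), and the exact two-sided sign-flip permutation test gave p = 0.137. It passed the threshold only without the pair of day 12, at 1.76 (limma adjusted p = 0.022), among the fits that left out 1 pair. The gap between the tissues changed by -2.36 from days 4-6 to days 7-9 (95% interval -6.36 to 1.63, limma adjusted p = 0.44), where 4.14% of transcripts were called in that direction. It changed by -1.52 from days 7-9 to days 10-12 (95% interval -5.51 to 2.47, limma adjusted p = 0.70), where 6.02% were. From days 4-6 to days 10-12 it changed by -3.88 (95% interval -7.87 to 0.11, limma adjusted p = 0.13), where 14.2% were. With age as a block this change passed the threshold (limma adjusted p = 0.037). Without the block, 0 of the 18 fits that left out 1 library passed, and their values ran from -4.91 to -1.96.

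The levels of dib and spo did not run together. Over the 20 libraries, which share ages and centres, Pearson's r of their log2 levels was -0.18, given as a description. Per length of transcript, spo was above dib in 4 of 20 libraries, namely pleuropodia of days 4 and 5 and legs of days 12 and 13. In pleuropodia of day 5 the level of spo was 10.1 times that of dib, and in legs of day 12 it was 10.6 times. At the other extreme, the level of dib was 788 times that of spo in pleuropodia of day 10 and 157 times in legs of day 7. Only in pleuropodia of day 13 (26.9 RPKM for dib and 24.8 RPKM for spo) did both genes exceed 20 RPKM in 1 library.

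Transcripts of like pattern were sought by Pearson's r of TMM-scaled log2 levels over the 20 libraries among 12448 transcripts, as a description of libraries that share age, depth and centre. An r of at least 0.9 with dib was found for 73 transcripts, led by SgreTa0013749 (r = 0.959) and SgreTa0014182 (r = 0.954), then SgreTa0008343 (r = 0.951), SgreTa0005907 (r = 0.95) and SgreTa0001798 (r = 0.947). On the deposited RPKM, not scaled, r of SgreTa0014182 with dib was 0.639, and that of the other 4 lay between 0.895 and 0.941. The profile of spo was shared by 2 transcripts at that level, SgreTa0009228 (r = 0.972) and SgreTd0008886 (r = 0.957). The transcripts after them were much less alike, namely SgreTa0002912 (r = 0.755), SgreTa0003455 (r = 0.738) and SgreTa0000995 (r = 0.722), and without scaling the first of these had an r of 0.446. None of these 10 has a gene name in the sources used here.

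SgreTa0009228 and SgreTd0008886 had their peaks in the same libraries as spo. SgreTa0009228 stood at 35.7 RPKM in pleuropodia of day 5, 9.81 RPKM in pleuropodia of day 13 and 13.2 RPKM in legs of day 12. SgreTd0008886 stood at 14.4, 4.27 and 3.47 RPKM in those libraries. In the 14 libraries with spo at 1 RPKM or more, the ratio of spo to SgreTa0009228 had a median of 2.67 and ran from 0.808 to 4.05, and its ratio to SgreTd0008886 had a median of 4.17 and ran from 1.80 to 10.9. Whether these transcripts and spo are pieces of 1 gene, or share reads, was not tested.

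**Figure D4:**
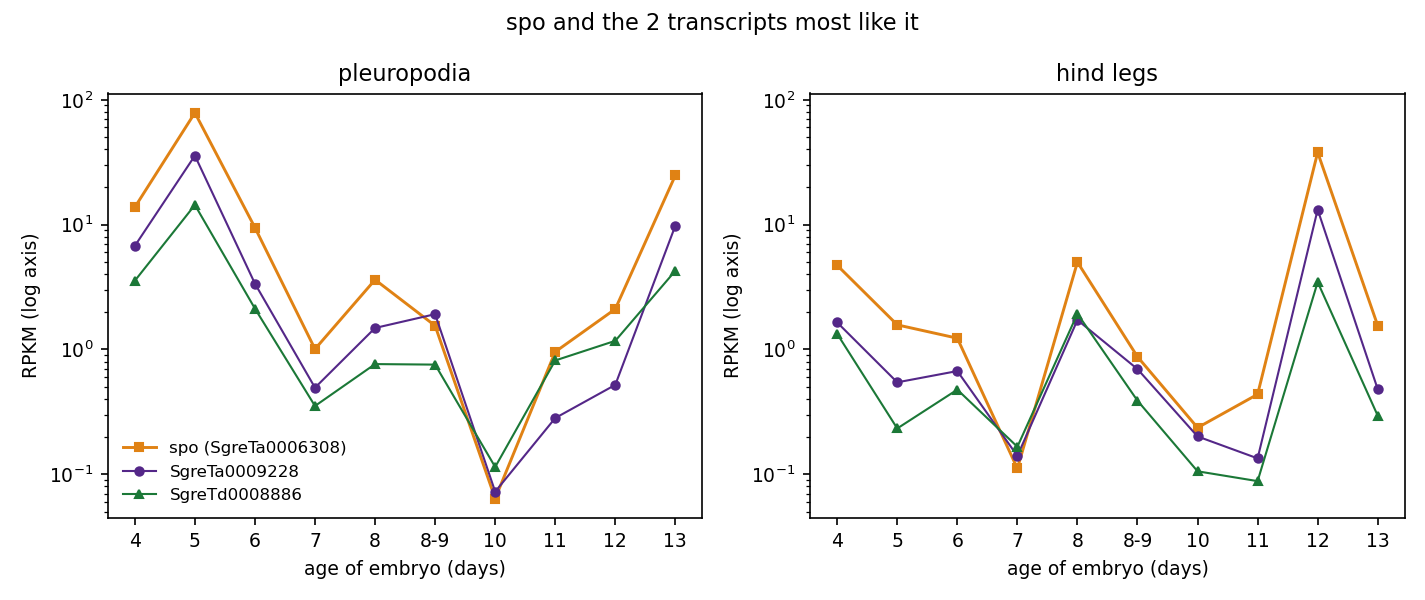
Level in RPKM (log axis) of spo (orange squares), SgreTa0009228 (purple circles) and SgreTd0008886 (green triangles) against age in days, in pleuropodia (left) and hind legs (right), 1 library per point. The 3 lines share the peaks of day 5 in pleuropodia and of day 12 in legs, where spo reads 78.7 and 37.9 RPKM.

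Other genes that act on cuticle, sterols and lipids were followed as lists of identifiers. They were picked in the study from these very libraries, which leaves their direction without independent support here. One list held 8 enzymes of the moulting fluid type, such as chitinase 5 and the N-acetylglucosaminidase NAG2, which break down the chitin of old cuticle. Of these, 8 were called higher in pleuropodia than in legs on days 7-9, where 24.6% of all transcripts were. On days 10-12, 7 were called higher, where 26% were, and on days 4-6, 0 of the 3 tested passed, where 0.0504% were. Their median log2 fold change was 5.79 on days 7-9 and 6.22 on days 10-12, against -0.06 and 0.05 over all transcripts tested. The enzyme not called on days 10-12 was chitinase 5 (log2 fold change 4.22, limma adjusted p = 0.12). On day 10 it stood at 49.1 RPKM in pleuropodia and 167 RPKM in legs. Of 5 genes of sterol and lipid handling, 5 were called higher in both of the later periods, against the same 24.6% and 26% of all transcripts. Their medians were 8.83 and 8.94. They were vigilin, which the study ties to sterol metabolism, alpha-tocopherol transfer proteins and a fatty acyl-CoA reductase. Vigilin had the lowest log2 fold changes of the 5, at 2.21 and 2.11. The cytochrome P450 CYP4G102 (SgreTa0006282), of a family that makes cuticular hydrocarbons, was higher in pleuropodia by log2 fold changes of 8.91 and 9.05. The fold changes of dib, at 1.62 and 3.29, had the same direction and were smaller than these medians. On days 10-12 the value of dib was above that of vigilin. The spo transcript passed in neither period.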

How the data were processed

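The deposited matrix holds RPKM values, although it is labelled a count matrix. The authors checked reads with FastQC, mapped them locally with Bowtie2 2.2.5 to a transcriptome they had assembled from embryos, trimmed the day 8-9 reads with Trimmomatic to the length of the others, removed constantly low transcripts (HTSFilter) and computed RPKM. A second deposited table holds only the authors' comparison of days 10-12 (means, ratio, difference, probability, rank). Its means were read once, to check that they equal those of dib and spo in the matrix, and no value of it is reported.

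Reads were recovered from the RPKM steps: 20 of 20 values of each gene were whole within 0.05 of a read, for lengths of 1826 (dib) and 2338 bases (spo). Intervals are exact at 95% and cover counting error only.

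RPKM were divided by TMM factors (0.565 to 1.35, trims of 30% and 5%), and log2(RPKM + 0.5) was tested with limma 3.58.1 (trend) in R 4.3.3. Transcripts needed 1 RPKM in as many libraries as the smaller group holds, and Benjamini-Hochberg adjustment ran over all of them with a threshold of 0.05. Fold changes are on that log2 scale and understate the change of low values. spo did not pass the filter on days 10-12 and was fitted there without it. Days within a period served as replicates, as in the study for days 10-12. Figures and counts used Python 3.11.15. The fits were tested on simulated data with independent libraries, a fixed spread and no trend with age. The real periods mix ages, so that check does not cover their spread.

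The named transcripts are the 2 genes, the 5 with the highest r to each, and listed context genes. The genes and lists were chosen with earlier results of these data known. Libraries of the same day share embryo age and centre. The residuals of same-day pairs about their group means correlated at -0.02 to 0.64, with days 5 and 11 under 0.1. Alternatives were no TMM, other pseudocounts, no filter, 1 fit of 18 libraries, age as block, and leaving out libraries, the day 8-9 pair or, added after seeing the data, each pair, with TMM-scaled ratio intervals and halved day 8-9 reads, also added then.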

Additional observations from a re-analysis of the deposited data

Results flagged for a closer look

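The gap of dib between pleuropodia and legs differed between periods. It was larger on days 10-12 than on days 4-6 by 2.66 on the log2 scale (SE 0.59, limma adjusted p = 0.0032), and the change passed the threshold in each of 18 fits that left out 1 library (2.22 to 3.20) and in each of 5 other settings (2.02 to 2.70). The study singled out dib on the libraries of days 10-12, so this change is not independent evidence of direction.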

How the results depend on the processing

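Among refits of the dib and spo results, 236 kept the direction and the side of the threshold, 3 reversed and 4 passed a threshold the reported fit missed. The cause of these changes was not tested. With 1 library left out (its tissue and period then rest on the others), spo ran from -0.021 (without the legs of day 7) to 1.47 on days 7-9, from -1.89 to 1.06 (without the legs of day 12) on days 10-12, and from -2.55 to 0.40 (without the legs of day 12) in its change from days 7-9 to days 10-12. dib ran from 0.72 to 1.53 in its change from days 4-6 to days 7-9 and from 1.23 to 1.95 in that from days 7-9 to days 10-12, both passing only without the pleuropodia of day 6. Over all ages spo ran from 0.81 to 1.76 with 1 pair left out. The spo change from days 4-6 to days 10-12 ran from -4.91 to -1.96 with 1 library left out, and 0 of these 18 fits passed. With age as a replicate block, that change was -3.88 and passed (limma adjusted p = 0.037, 0.037 to 0.19 over its settings), and the block altered no other dib or spo call. It lowered the transcripts called on days 4-6 to 0, against 12 (692 and 583 at an unadjusted p under 0.05). On days 7-9 the block raised them to 7334 of 10989, against 5154, and on days 10-12 it gave 5144, against 5243. Without the block the fit of all ages called 3120, against 5396. Without TMM the median of all transcripts lay at -0.55 on days 10-12, against 0.05, and no dib or spo call changed. Depth limits spo in troughs, where 5 reads stood behind 1 value.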
